A study of Penicillium oxalicum with 12 samples.

Results

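Ribosome biogenesis factors are the proteins that make, cut, modify and fold ribosomal RNA and add ribosomal proteins to it, without being part of the finished ribosome. In yeast, RNA polymerase I transcribes the precursor rRNA, the U3 snoRNA particle and its UTP proteins form the small subunit processome on it, box C/D particles methylate it, and a separate series of factors matures the large subunit. Their genes are known in budding yeast as a set that is transcribed together and that follows growth and nutrient supply.

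Here the transcripts of these factors were followed in Penicillium oxalicum, a mould known for the cellulases it secretes. Members were the genes with 1 KEGG orthology name that contained a term for ribosome biogenesis, production or assembly, U3 small nucleolar, nucleolar protein, rRNA or an RNA polymerase I subunit, ribosomal proteins left out. The rule used names and a floor on expression, not differences between strains. It gave 96 of 9931 genes by name, and 95 of these passed the floor of 1 FPKM, a read density scaled to transcript length and to library size, in at least 3 of 12 libraries, as did 9431 genes in all. The member left out was PDE_07117, 1 of 7 loci named ribosome assembly protein 4, at 0 to 0.02 FPKM. The lowest member inside was PDE_09269, which carries the name of a bacterial 23S rRNA adenine methyltransferase, at 1.36 to 4.39 FPKM and above the floor in all 12 libraries.

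Mycelia of 4 strains were compared, with 3 libraries each: the wild type 114-2 (WT), a strain with laeA deleted (DlaeA), and 2 strains in which a lysine of histone H2B was changed to alanine, at position 123 (H2BK123A) or 131 (H2BK131A). LaeA is known in filamentous fungi as a putative methyltransferase that regulates secondary metabolism and development. All strains had been grown from conidia for 22 h at 30 °C on 2% glucose in VMM medium, and RNA was taken 24 h after transfer of the mycelia to Mandel's medium with 2% glucose. The labels do not say whether libraries of 1 strain are separate cultures, or how many transformants each mutant rests on, so p-values measure the spread between libraries, which may be technical. The locus recalled from published work as laeA, PDE_00584, was at 33.9 to 37.9 FPKM in WT, at 0 to 0.11 in DlaeA, and at 33.4 to 39.4 in the H2B mutants. The files show no base changes, so the H2B mutations could not be checked.

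The KEGG names held up unevenly against the deposited Gene Ontology terms. Of the 96 members, 21 had a term for the ribosome, rRNA or nucleolus, 58 had none, and 1 had unrelated terms only. The other 16 had a term for the nucleus or RNA, or only a broad one. Such broad terms were organic cyclic compound binding, purine ribonucleoside binding or an intracellular organelle, which say little about the name. The member with unrelated terms only, PDE_06094, is named SSF1/2 but its terms include acyl transferase, phosphoprotein phosphatase and protein modification. It was far above every other member at 1319 FPKM ± 84.6 (SD, n = 3) in WT. A second locus, PDE_02616, has the same KEGG name. PDE_06315, counted among the 16, is named ribosome production factor 2, but its terms also point elsewhere. They include tRNA aminoacylation, translational elongation and carboxylic ester hydrolase. Its name belongs to 1 locus, so it stays in the counts below. In all, 10 of the 79 distinct names were held by several loci, 27 members together, and for these the name does not tell which locus is the factor of yeast. Counts are therefore given for all members and for the 69 members whose name belongs to 1 locus.

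The summed level of these 69 genes was 985, 1135 and 1029 FPKM in the WT libraries, 1618, 1489 and 1520 in DlaeA, 959, 975 and 1219 in H2BK123A, and 1695, 1867 and 1794 in H2BK131A. All DlaeA and H2BK131A libraries lay above all WT and H2BK123A libraries, and the third H2BK123A library stood above the other two. Without it, H2BK123A lay below all 3 WT libraries. The sum over all 95 members did not separate the strains in this way. It was 3059.7, 3246 and 3189 FPKM in WT, 3172, 3209 and 3279 in DlaeA, 2131, 2116 and 2404 in H2BK123A, and 3034, 3242 and 3199.5 in H2BK131A. DlaeA and H2BK131A overlapped WT, with ratios of the mean sums to WT of 1.02 and 0.998, and H2BK123A lay below every other library, with a ratio of 0.70. PDE_06094 alone made up 1319 FPKM of the mean WT sum of 3165. Over all 95 members the median deviation from a gene's own mean ran from -0.40 to -0.21 on the log2 scale in WT, from 0.19 to 0.23 in DlaeA, from -0.41 to -0.05 in H2BK123A and from 0.31 to 0.48 in H2BK131A. The same median over all tested genes was -0.25 to -0.06 in WT and -0.05 to 0.12 in the mutants. In bulk RNA, fewer cells of a type and less RNA per cell cannot be told apart.

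**Figure D1:**
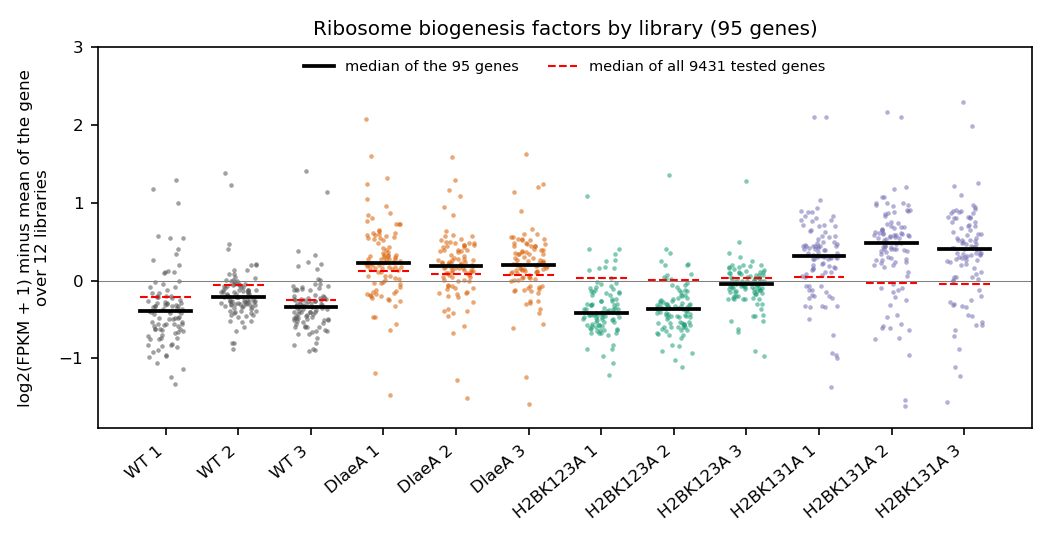
Each point is 1 of the 95 ribosome biogenesis genes in 1 library, as log2(FPKM + 1) minus that gene's mean over the 12 libraries. Black lines are the medians of the 95 genes, which are above 0 in the 6 libraries of DlaeA and H2BK131A, and red dashed lines are the medians of all 9431 tested genes.

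In DlaeA, 68 of 95 members rose against WT and 5 fell, that is at an adjusted p under 0.05, while 46.3% of all tested genes were called higher and 23.6% lower. The median change of the members was 0.52 on the log2(FPKM + 1) scale, beside 0.27 over all tested genes. Most changes were small, since 14 members rose by 2-fold or more and 1 fell as far, beside 18.3% and 11.9% of all tested genes. Among the 69 members with a name of their own, 50 rose and 0 fell, with 1 below WT at an unadjusted p under 0.05. After median ratio scaling, which moved the median of all genes from 0.27 to 0.02, the split over the 95 was 39 higher to 11 lower. Over all 9431 tested genes it was then 3212 to 3154. After quantile scaling the members split 49 to 9, beside 3586 to 2813 over all tested genes. Relative to all genes the members' median was 0.24 in the main fit, 0.24 after median ratio scaling and 0.25 after quantile scaling.

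In H2BK131A, 70 members rose against WT and 8 fell, beside 40.6% and 30.2% of all tested genes. The median was 0.73 against 0.13 over all genes, and 27 members rose by 2-fold or more while 4 fell as far, beside 19.9% and 13.7% of all tested genes. Of the members with a name of their own 55 rose and 2 fell. Those 2 were SRD1 (PDE_01531) and PDE_02304, named for a 25S rRNA adenine methyltransferase and chosen for mention after its value of -0.45 ± 0.15 (SE, adjusted p = 0.018) was seen.

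In H2BK123A, 8 members rose against WT and 7 fell, beside 33.5% and 13.1% of all tested genes, with a median of 0.02 against 0.18 over all genes. Of the members with a name of their own 3 rose and 4 fell. The number that rose was 16 without the second WT library, which was the highest of the 3 for these genes. Of all 9431 tested genes, 3883 rose in that fit. The split was 6 to 16 after median ratio scaling, beside 2195 to 2235 over all tested genes. After quantile scaling it was 6 to 15, beside 2209 to 2105. A gene that missed the threshold here was not shown to be at the WT level. All comparisons with WT share the same 3 WT libraries, so their values are set side by side below without a measure of likeness.

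Set directly against each other, H2BK123A was higher than DlaeA at 4 members and lower at 59, beside 28.1% and 33.1% of all tested genes. H2BK131A was higher than H2BK123A at 66 members and lower at 10, beside 32.9% and 35.8%. Against DlaeA, H2BK131A was higher at 29 and lower at 19 members, beside 36.2% and 41.3%. After quantile scaling the numbers were 45 and 17, beside 3607 and 3747 of all 9431 tested genes. Among the 69 members with a name of their own, the main fit gave 1 higher and 42 lower in H2BK123A than in DlaeA. It gave 56 and 3 for H2BK131A against H2BK123A, and 24 and 8 for H2BK131A against DlaeA. In the last comparison the 26 tested loci with a shared name split 5 to 11.

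**Figure D2:**
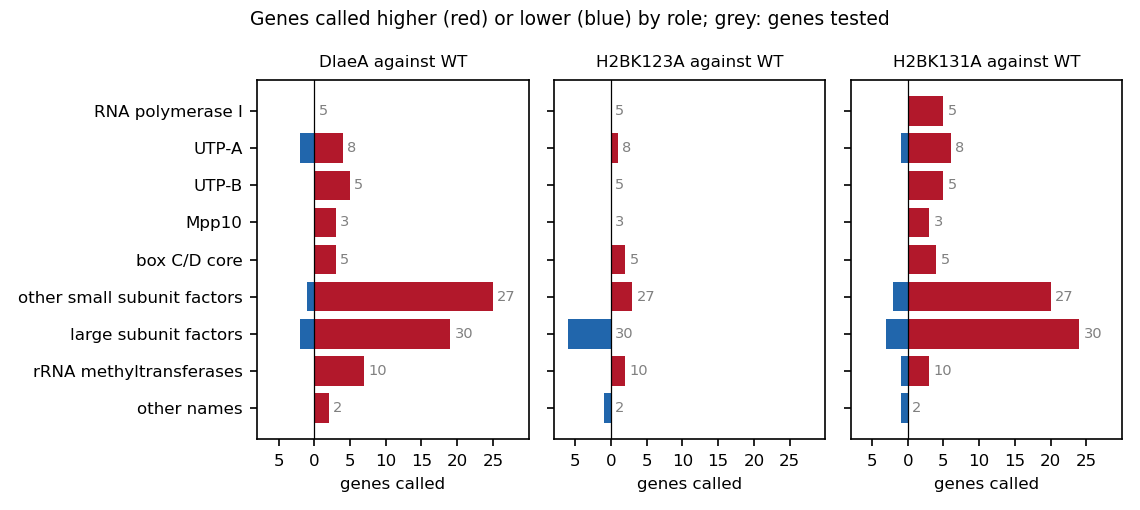
Number of members called higher (red, right of 0) or lower (blue, left of 0) than WT at an adjusted p under 0.05, by role, with the number tested in grey. The RNA polymerase I row holds 0 calls in DlaeA and H2BK123A and 5 of 5 higher in H2BK131A. Of all 9431 tested genes, 46.3% were called higher and 23.6% lower in DlaeA. These shares were 33.5% and 13.1% in H2BK123A, and 40.6% and 30.2% in H2BK131A.

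RNA polymerase I, the enzyme that transcribes the precursor rRNA, was represented by 5 subunits, and its transcripts were raised in H2BK131A. All 5 subunits rose in H2BK131A against WT, with a median of 1.12, beside 40.6% of all tested genes. All 5 were also higher there than in DlaeA (median 0.97) and than in H2BK123A (median 1.18), beside 36.2% and 32.9%. These directions and calls were the same after both other scalings. In DlaeA and in H2BK123A, limma called 0 of 5 against WT in either direction. At an unadjusted p under 0.05, 1 subunit was below WT in DlaeA and 0 differed in H2BK123A.

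The largest subunit, RPA1 (PDE_00243), was at 7.20, 13.6 and 10.3 FPKM in WT, 14.7, 12.97 and 13.1 in DlaeA, 10.3, 10.6 and 13.7 in H2BK123A, and 25.5, 29.7 and 27.6 in H2BK131A. The H2BK131A libraries stood clear of the other 9, which overlapped among the other strains. It rose by 1.37 ± 0.18 (SE, adjusted p = 3.3e-05) against WT and by 0.97 ± 0.18 (adjusted p = 0.0004) against DlaeA. RPA43 (PDE_05879), which in yeast contacts the initiation factor Rrn3, had the tightest WT values of the 5, at 11.7, 13.1 and 11.9 FPKM. It was at 11.6, 12.8 and 11.9 in DlaeA, 11.8, 9.84 and 13.9 in H2BK123A, and 25.9, 29.7 and 27.8 in H2BK131A. The first 3 strains overlapped and H2BK131A did not, with a rise of 1.12 ± 0.12 (adjusted p = 5.2e-06) against WT.

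The second largest subunit RPA2 (PDE_06994) rose by 1.23 ± 0.18 and RPA49 (PDE_09294), a subunit of the elongating enzyme, by 1.08 ± 0.14 in H2BK131A. RPA12 (PDE_06937) takes part in RNA cleavage by the enzyme. Its level was 13.9, 16.5 and 13.5 FPKM in WT, 15.7, 8.52 and 9.26 in DlaeA, 11.2, 10.1 and 11.99 in H2BK123A, and 25.1, 21.7 and 21.9 in H2BK131A. H2BK123A lay below WT without overlap, and in DlaeA the first library was within the WT range and the other two below it. Its differences from WT were -0.41 ± 0.18 in DlaeA (adjusted p = 0.067) and -0.37 ± 0.18 in H2BK123A (adjusted p = 0.12), and 0.61 ± 0.18 in H2BK131A (adjusted p = 0.011). RPA12 was called lower after median ratio scaling, at -0.67 in DlaeA and -0.58 in H2BK123A, after quantile scaling, at -0.57 and -0.54, and in DlaeA without its first library, at -0.66. Without the second WT library, RPA1, RPA2 and RPA49 were called higher in DlaeA, at 0.60, 0.50 and 0.40.

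Box C/D snoRNP core proteins are part of the particle that methylates the rRNA ribose, and fibrillarin is the methyltransferase among them. Fibrillarin (PDE_00286) was at 56.3, 86.6 and 79.7 FPKM in WT, 52.1, 67.2 and 74.9 in DlaeA, 51.0, 54.6 and 66.1 in H2BK123A, and 157, 173 and 176 in H2BK131A. Only the H2BK131A libraries stood apart, and the rise was 1.20 ± 0.17 (adjusted p = 6.8e-05) against WT and 1.38 ± 0.17 (adjusted p = 1.6e-05) against DlaeA. Its difference from WT was -0.19 ± 0.17 in DlaeA and -0.35 ± 0.17 in H2BK123A, and neither was called.

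NOP56 and NOP58, the scaffold proteins of the same particle, are each named at 2 loci, and the loci of a name differed from each other. PDE_04970, named NOP56, was at 32.8, 57.1 and 48.3 FPKM in WT, 72.3, 69.4 and 75.0 in DlaeA, 44.6, 49.9 and 63.4 in H2BK123A, and 122, 147 and 137 in H2BK131A. It rose in DlaeA by 0.67 ± 0.18 (adjusted p = 0.0062) and in H2BK131A by 1.57 ± 0.18 (adjusted p = 1.1e-05). Its namesake PDE_04968 was at 23.2, 27.9 and 17.2 FPKM in WT, 69.4, 60.3 and 50.6 in DlaeA, 37.1, 37.9 and 37.9 in H2BK123A, and 28.1, 23.7 and 19.7 in H2BK131A. That locus rose in DlaeA by 1.38 ± 0.18 and in H2BK123A by 0.73 ± 0.18, both without overlap with WT, while H2BK131A overlapped WT (0.07 ± 0.18, adjusted p = 0.72). Of the loci named NOP58, PDE_05114 rose in H2BK131A by 1.57 ± 0.21 and was at 0.22 ± 0.21 in DlaeA. The other, PDE_05115, rose in all 3 mutants, by 0.95 ± 0.16 in DlaeA, 0.64 ± 0.16 in H2BK123A and 0.97 ± 0.16 in H2BK131A.

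**Figure D3:**
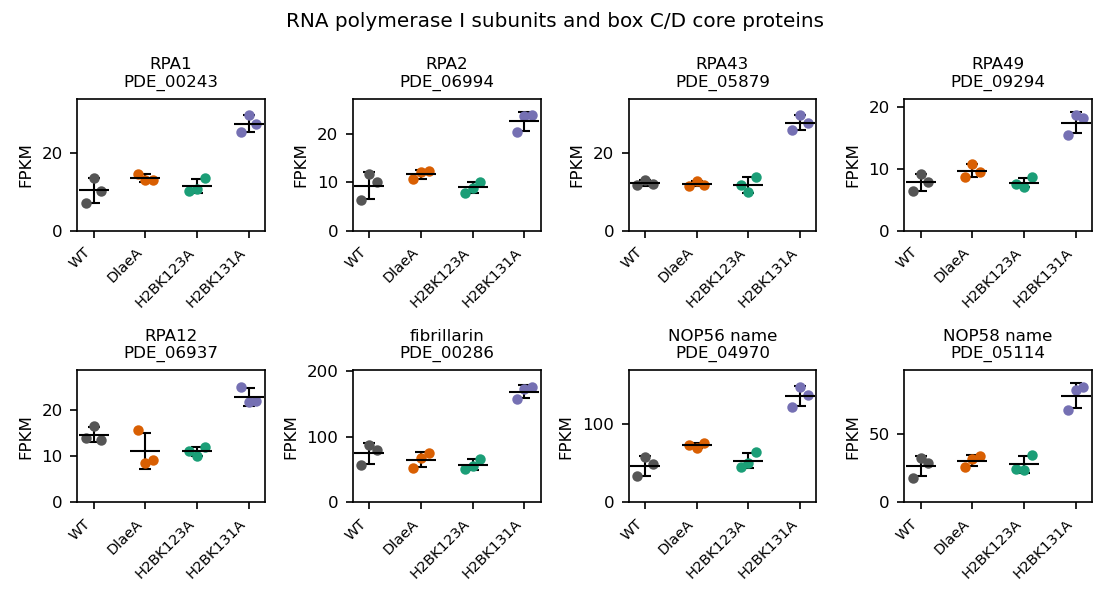
FPKM in each library (points) with the mean and SD of the 3 libraries per strain (black) for the 5 RNA polymerase I subunits and 3 box C/D core genes. The H2BK131A points lie above the points of the other 3 strains in every panel. The box C/D loci PDE_04968 and PDE_05115 are not shown. In H2BK131A the former lay below DlaeA and the latter overlapped DlaeA.

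The first 2 groups of UTP proteins to join the precursor rRNA in yeast are UTP-A and UTP-B, and the Mpp10 complex follows them. All 5 UTP-B members rose in DlaeA (median 0.88) and in H2BK131A (median 1.02), beside 46.3% and 40.6% of all tested genes. In H2BK123A 0 of 5 were called, beside 33.5% higher and 13.1% lower of all tested genes. There 1 was higher and 0 lower at an unadjusted p under 0.05. After median ratio scaling 3 of 5 were called higher in DlaeA and 5 of 5 in H2BK131A, beside 3212 and 3326 of all 9431 tested genes. MPP10, IMP3 and IMP4 all rose in both strains, with medians of 0.54 and 0.81, and after median ratio scaling 1 of the 3 was called in DlaeA. MPP10 (PDE_09086) was at 6.49, 8.17 and 7.67 FPKM in WT, 12.5, 14.1 and 15.4 in DlaeA, 8.58, 7.59 and 11.1 in H2BK123A, and 16.6, 19.1 and 18.8 in H2BK131A. DlaeA and H2BK131A stood above WT without overlap, and H2BK123A overlapped WT.

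UTP21 (PDE_01461), a WD40 repeat protein of UTP-B, had the largest rise of any member against WT, in H2BK131A. It was at 6.82, 9.70 and 9.61 FPKM in WT, 15.3, 17.3 and 17.5 in DlaeA, 8.97, 8.70 and 11.5 in H2BK123A, and 82.8, 82.9 and 76.9 in H2BK131A. H2BK131A was far above every other library, and DlaeA was above WT without overlap. The log2 change was 3.09 ± 0.14 (adjusted p = 5.3e-09) in H2BK131A and 0.88 ± 0.14 (adjusted p = 0.00015) in DlaeA, and H2BK131A exceeded DlaeA by 2.21 ± 0.14. The other 4 UTP-B members rose by 0.78 to 1.10 in H2BK131A.

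Of the 8 UTP-A members 4 rose and 2 fell in DlaeA, near the 46.3% and 23.6% of all tested genes. Their median there was 0.30, beside 0.27 over all tested genes. In H2BK131A 6 rose and 1 fell, beside 40.6% and 30.2%. The calls that fell were all at loci named UTP17 (NAN1 in yeast), a name held by 3 loci. PDE_05818 was at 189, 219 and 185 FPKM in WT, 36.1, 33.9 and 34.8 in DlaeA, 178, 214 and 203 in H2BK123A, and 42.5, 28.2 and 35.2 in H2BK131A. DlaeA and H2BK131A were low and did not overlap the other strains, with changes of -2.46 ± 0.14 and -2.47 ± 0.14, and their own difference was 0.00 ± 0.14 (adjusted p = 0.98). PDE_09406 was at 33.9, 38.7 and 29.8 in WT, 19.6, 18.9 and 17.9 in DlaeA, 74.4, 48.9 and 53.02 in H2BK123A, and 242, 256 and 277 in H2BK131A. No pair of strains overlapped at that locus, which fell in DlaeA (-0.82 ± 0.15) and rose in H2BK123A (0.75 ± 0.15) and H2BK131A (2.89 ± 0.15, adjusted p = 1.3e-08). PDE_05820 was at 8.89 to 14.7 FPKM in WT, DlaeA and H2BK123A and at 29.1 to 31.4 in H2BK131A, a rise of 1.28 ± 0.16.

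The other small subunit factors were the group with the highest share of calls in DlaeA among those of more than 5 members. There 25 of 27 rose and 1 fell, beside 46.3% and 23.6% of all tested genes, with a median of 0.67. After median ratio scaling 17 rose and 1 fell, beside 3212 and 3154 of all 9431 tested genes. In H2BK131A 20 rose and 2 fell (median 0.73), beside 40.6% and 30.2%. In H2BK123A 3 rose and 0 fell, beside 33.5% and 13.1%, with 5 and 0 at an unadjusted p under 0.05. UTP14 (PDE_02861), which in yeast activates a helicase of the processome, was at 12.5, 11.95 and 10.7 FPKM in WT, 31.3, 22.3 and 23.5 in DlaeA, 9.21, 10.3 and 13.5 in H2BK123A, and 18.2, 18.4 and 18.01 in H2BK131A. DlaeA was highest, H2BK131A second, and neither overlapped WT or the other. The rises were 1.06 ± 0.15 and 0.60 ± 0.15, and H2BK131A was below DlaeA by -0.46 ± 0.15 (adjusted p = 0.014). UTP11 (PDE_00330), another processome protein, rose by 1.12 ± 0.17 in DlaeA and 0.95 ± 0.17 in H2BK131A.

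TSR4 (PDE_04951), which in yeast escorts a small subunit ribosomal protein, was at 9.70, 9.31 and 8.37 FPKM in WT, 15.7, 17.1 and 16.5 in DlaeA, 8.28, 8.34 and 11.6 in H2BK123A, and 26.4, 26.3 and 24.8 in H2BK131A. Here H2BK131A was highest and DlaeA second, again without overlap with WT. It rose by 0.79 ± 0.12 in DlaeA and by 1.41 ± 0.12 in H2BK131A, and those strains differed by 0.62 ± 0.12 (adjusted p = 0.00059). The processome scaffold UTP20 (PDE_06986) was the smallest rise called in H2BK123A, at 0.45 ± 0.17 (adjusted p = 0.046). Its libraries overlapped WT, and the call was lost without H2BK123A 2 or 3 or without WT 1 or 3, at 0.29 to 0.49, and after both other scalings. That call was also lost in a fit of the 2 strains alone, without the filter and with DlaeA libraries 2 and 3 averaged. It held at 6 of 15 alternatives.

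A further pair of genes was raised in DlaeA and not called in H2BK131A. TMA23 (PDE_00338), a nucleolar protein linked to ribosome production in yeast, was at 26.1, 17.4 and 16.4 FPKM in WT, 83.6, 67.4 and 64.7 in DlaeA, 17.9, 16.7 and 22.6 in H2BK123A, and 20.95, 19.5 and 17.8 in H2BK131A. DlaeA alone was high, by 1.82 ± 0.18 (adjusted p = 2.8e-06) against WT, and H2BK131A was at -0.01 ± 0.18. PDE_00589 bears the name of the cell growth-regulating nucleolar protein, known as LYAR in mammals. It was at 14.99, 13.1 and 17.03 FPKM in WT, 93.1, 65.6 and 67.4 in DlaeA, 8.60, 9.31 and 10.4 in H2BK123A, and 18.1, 19.1 and 18.4 in H2BK131A. It rose in DlaeA by 2.24 ± 0.14 (adjusted p = 7.5e-08), the largest rise of a member there, and in H2BK123A fell by 0.62 ± 0.14 (adjusted p = 0.0042). The direct difference between H2BK131A and DlaeA was -1.83 ± 0.18 for TMA23 and -1.95 ± 0.14 for PDE_00589.

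The GTPase BMS1, which acts in the processome, is named at 2 neighbouring locus numbers, PDE_08642 and PDE_08643. The protein description of PDE_08642 gives a domain of unknown function instead. PDE_08643 was at 8.63, 12.96 and 11.2 FPKM in WT, 22.0, 22.4 and 21.6 in DlaeA, 14.3, 15.1 and 17.2 in H2BK123A, and 14.6, 19.6 and 19.5 in H2BK131A. All mutants were above WT without overlap, by 0.96 ± 0.15 in DlaeA, 0.48 ± 0.15 in H2BK123A (adjusted p = 0.021) and 0.67 ± 0.15 in H2BK131A. The H2BK123A call was lost without H2BK123A 3 (0.41) or WT 1 (0.33), after both other scalings, and in a fit of the 2 strains alone. PDE_08642 rose by 1.53 ± 0.12 in DlaeA and 0.90 ± 0.12 in H2BK123A and was not called in H2BK131A (0.25 ± 0.12, adjusted p = 0.081). Both loci were thus highest in DlaeA. Of the 3 loci named UTP23, PDE_02819 rose in DlaeA (0.55 ± 0.10) and fell in H2BK131A (-0.46 ± 0.10). PDE_08729 fell by 0.84 ± 0.22 in DlaeA and fell by 0.52 ± 0.22 in H2BK131A (adjusted p = 0.048). In H2BK131A the libraries overlapped WT and the call was lost without WT 1 (-0.23) or H2BK131A 2 (-0.53) or 3 (-0.41). That call was also lost in a fit of the 2 strains alone, without the filter and with DlaeA libraries 2 and 3 averaged. It held at 9 of 15 alternatives.

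Large subunit factors split between strains. Of 30 tested, 19 rose and 2 fell in DlaeA (median 0.41), 24 rose and 3 fell in H2BK131A (median 0.69), and 0 rose and 6 fell in H2BK123A (median -0.05). The shares of all tested genes were 46.3% and 23.6%, 40.6% and 30.2%, and 33.5% and 13.1% in that order. At an unadjusted p under 0.05 2 were higher and 6 lower in H2BK123A. After median ratio scaling the DlaeA split was 10 to 4, beside 3212 to 3154 over all tested genes. Against DlaeA, 11 were higher and 6 lower in H2BK131A, beside 36.2% and 41.3% of all tested genes.

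The assembly chaperones SQT1 and RRB1 were highest in H2BK131A and fell in H2BK123A. SQT1 (PDE_09689), in yeast the chaperone of ribosomal protein Rpl10, was at 20.8, 19.9 and 17.99 FPKM in WT, 23.1, 26.2 and 25.6 in DlaeA, 13.9, 13.8 and 16.3 in H2BK123A, and 53.3, 60.1 and 61.9 in H2BK131A. No pair of strains overlapped. It rose by 1.53 ± 0.10 in H2BK131A (adjusted p = 1.2e-07) and by 0.34 ± 0.10 in DlaeA (adjusted p = 0.012), and fell by 0.39 ± 0.10 in H2BK123A (adjusted p = 0.009). RRB1 (PDE_07877), in yeast the chaperone of Rpl3, was at 21.2, 23.9 and 22.9 in WT, 21.9, 21.4 and 22.1 in DlaeA, 13.1, 15.1 and 21.01 in H2BK123A, and 44.8, 50.7 and 47.5 in H2BK131A. Its H2BK123A libraries lay below WT, the third only just, and DlaeA overlapped WT. It rose by 1.04 ± 0.14 in H2BK131A and fell by 0.47 ± 0.14 in H2BK123A (adjusted p = 0.018). The latter call was lost without H2BK123A 1 (-0.33) or 2 (-0.42), and in a fit of the 2 strains alone.

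YTM1 and ERB1 act together in yeast on the large subunit precursor. YTM1 (PDE_03687) was at 7.73, 8.63 and 8.82 FPKM in WT, 11.5, 11.01 and 12.2 in DlaeA, 7.57, 7.29 and 11.3 in H2BK123A, and 21.9, 24.7 and 23.8 in H2BK131A. It was highest in H2BK131A, by 1.38 ± 0.14, and intermediate in DlaeA, by 0.42 ± 0.14 (adjusted p = 0.019). ERB1 (PDE_06783) rose in H2BK131A by 0.86 ± 0.20 and was at 0.05 ± 0.20 in DlaeA (adjusted p = 0.84).

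RIX1, IPI1 and IPI3 form the Rix1 complex of the large subunit precursor in yeast, and here the 3 genes did not move alike. RIX1 (PDE_09336) was at 3.33, 4.94 and 3.44 FPKM in WT, 11.8, 10.2 and 10.1 in DlaeA, 4.82, 4.13 and 6.09 in H2BK123A, and 9.18, 10.6 and 9.50 in H2BK131A. IPI3 (PDE_01999) was at 3.80, 4.22 and 4.80 in WT, 8.82, 9.41 and 9.81 in DlaeA, 2.58, 3.21 and 5.04 in H2BK123A, and 10.5, 13 and 11.5 in H2BK131A. Both stood above WT without overlap in DlaeA and H2BK131A, by 1.27 ± 0.15 and 1.15 ± 0.15 for RIX1 and by 0.98 ± 0.17 and 1.27 ± 0.17 for IPI3. IPI1 (PDE_03337) was at 7.06, 5.76 and 6.45 in WT, 5.54, 5.36 and 4.59 in DlaeA, 3.78, 4.11 and 5.44 in H2BK123A, and 6.22, 7.90 and 7.56 in H2BK131A. In H2BK123A it fell by 0.46 ± 0.14 (adjusted p = 0.02), with no call in DlaeA (-0.27 ± 0.14) or H2BK131A (0.15 ± 0.14). That call was lost without H2BK123A 1 or 2 or without WT 1 or 3, at -0.45 to -0.37, and in a fit of the 2 strains alone.

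SRD1 (PDE_01531), which in yeast is linked to processing of the precursor rRNA, went down in H2BK131A, where most members went up. It was at 65.6, 59.5 and 65.3 FPKM in WT, 93.5, 71.0 and 74.4 in DlaeA, 50.6, 52.3 and 55.5 in H2BK123A, and 26.7, 30.4 and 23.4 in H2BK131A. The strains did not overlap. It fell by 1.22 ± 0.12 in H2BK131A (adjusted p = 3.1e-06), rose by 0.31 ± 0.12 in DlaeA (adjusted p = 0.038), and was at -0.26 ± 0.12 in H2BK123A (adjusted p = 0.1).

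The 6 tested loci named ribosome assembly protein 4 (RSA4 in yeast, a factor removed from the large subunit precursor by midasin) included both rises and falls. PDE_04520 was at 7.77, 5.69 and 6.26 FPKM in WT, 16.6, 15.7 and 15.4 in DlaeA, 6.33, 5.16 and 7.13 in H2BK123A, and 17.9, 20.2 and 20.6 in H2BK131A. It rose by 1.17 ± 0.13 and 1.45 ± 0.13 in DlaeA and H2BK131A, and H2BK123A overlapped WT. PDE_04000 was at 35.4, 32.1 and 31.6 in WT, 61.1, 52.0 and 56.5 in DlaeA, 24.6, 18.6 and 23.2 in H2BK123A, and 8.66, 7.18 and 7.46 in H2BK131A. Its 4 strains did not overlap, with a rise of 0.76 ± 0.12 in DlaeA and falls of -0.57 ± 0.12 in H2BK123A and -1.96 ± 0.12 in H2BK131A (adjusted p = 5.3e-08). H2BK131A was lower than DlaeA there by -2.72 ± 0.12, the lowest such difference of a member. PDE_07717 rose in DlaeA by 1.62 ± 0.10 and was at -0.05 ± 0.10 in H2BK131A. PDE_04522 rose in DlaeA (1.04 ± 0.09) and H2BK131A (0.69 ± 0.09). PDE_06188, at 89.2 FPKM ± 10.4 (SD, n = 3) in WT, rose by 0.49 ± 0.12 in DlaeA and 0.30 ± 0.12 in H2BK131A (adjusted p = 0.039), the latter with overlapping libraries. In H2BK131A, PDE_06420 fell by 0.69 ± 0.12.

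Both loci named SSF1/2, a large subunit factor of yeast, fell in DlaeA and in H2BK123A. PDE_06094 was at 1302, 1245 and 1411 FPKM in WT, 588, 798 and 838 in DlaeA, 332, 283 and 284 in H2BK123A, and 265, 273 and 289 in H2BK131A. Every mutant was below WT without overlap, by -0.85 ± 0.15, -2.14 ± 0.15 and -2.25 ± 0.15. PDE_02616 was at 29.2, 16.3 and 22.9 in WT, 12.97, 15.1 and 14.5 in DlaeA, 12.5, 12.6 and 14.2 in H2BK123A, and 33.0, 39.4 and 35.5 in H2BK131A. It fell by 0.61 ± 0.17 in DlaeA, fell by 0.72 ± 0.17 in H2BK123A, and rose by 0.67 ± 0.17 in H2BK131A (adjusted p = 0.0038), so that the namesakes moved in opposite directions in that strain.

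**Figure D4:**
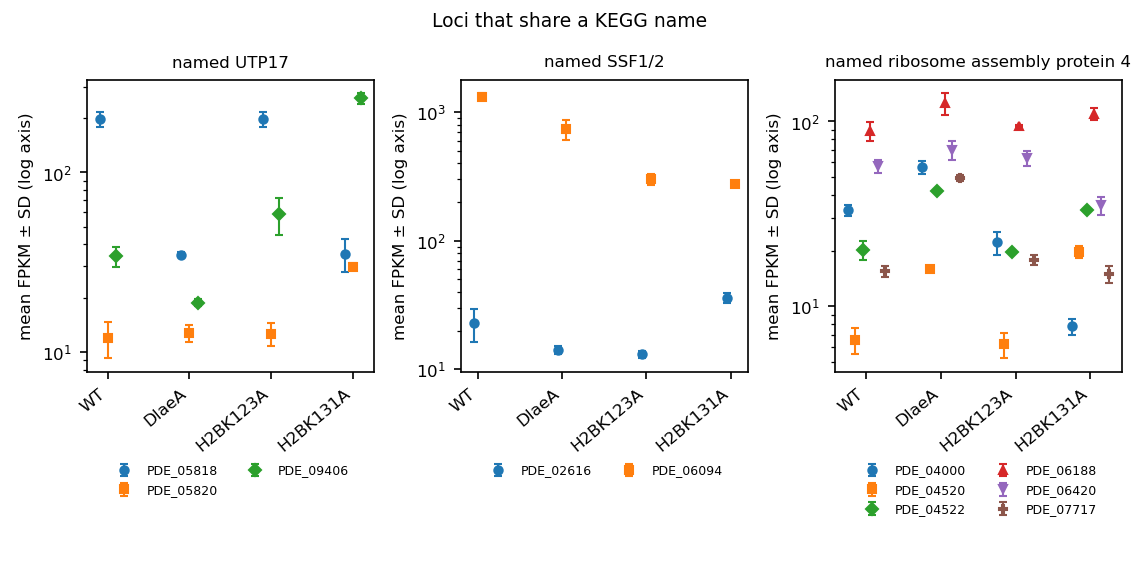
Mean FPKM with SD of 3 libraries per strain, on a log axis, for loci that share a KEGG name (UTP17, SSF1/2 and ribosome assembly protein 4). Loci of 1 name differ in level and in direction: in H2BK131A, PDE_05818 and PDE_04000 lie below their WT means while PDE_09406 and PDE_04520 lie above theirs.

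The remaining rRNA methyltransferases modify bases or riboses of the rRNA, some of them in mitochondria. Of 10 tested, 7 rose and 0 fell in DlaeA (median 0.50), and 7 and 0 passed an unadjusted p under 0.05. In H2BK131A 3 rose and 1 fell (median 0.07), and in H2BK123A 2 rose and 0 fell. Of all tested genes 46.3% rose and 23.6% fell in DlaeA. The shares were 40.6% and 30.2% in H2BK131A, and 33.5% and 13.1% in H2BK123A. At an unadjusted p under 0.05 the numbers were 4 and 1 in H2BK131A and 2 and 0 in H2BK123A. After median ratio scaling the splits were 4 to 2 in DlaeA, 2 to 3 in H2BK131A and 2 to 2 in H2BK123A, and the median in H2BK131A turned to -0.11. Over all tested genes the splits were then 3212 to 3154, 3326 to 3542 and 2195 to 2235. In the direct comparison of H2BK131A with DlaeA, 5 were lower and 1 was higher, beside 41.3% and 36.2% of all tested genes. The median there was -0.43, and after each other scaling 5 were lower and 2 higher.

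PDE_02296, named for the 25S rRNA uracil methyltransferase known in yeast as Bmt5, was at 15.9, 24.2 and 16.8 FPKM in WT, 38.8, 38.8 and 37.7 in DlaeA, 34.4, 34.5 and 36.9 in H2BK123A, and 20.3, 16.3 and 16.3 in H2BK131A. DlaeA and H2BK123A were high without overlap with WT, by 1.01 ± 0.14 (adjusted p = 6.7e-05) and 0.89 ± 0.14 (adjusted p = 0.00052), and H2BK131A overlapped WT. PDE_00189, named for the related enzyme Bmt6, was at 10.6, 13.7 and 9.89 in WT, 24.2, 18.6 and 21.3 in DlaeA, 19.5, 18.6 and 18.6 in H2BK123A, and 13.9, 14.9 and 14.7 in H2BK131A. It rose in all mutants, by 0.86 ± 0.13, 0.70 ± 0.13 and 0.34 ± 0.13 in that order. These were the members with a name of their own and the largest rises in H2BK123A. PDE_09269, the member just inside the floor, rose in H2BK131A by 1.02 ± 0.15 (adjusted p = 7e-05), with all libraries at 4.20 to 4.39 FPKM against 1.36 to 2.48 in the other strains.

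**Figure D5:**
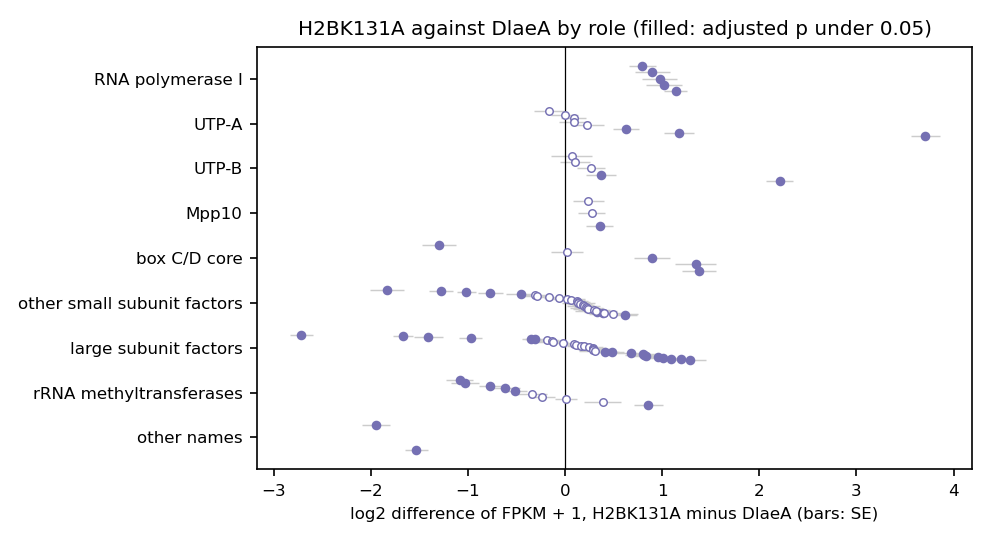
Log2 difference of H2BK131A minus DlaeA for each member by role, with its SE (filled points: adjusted p under 0.05). RNA polymerase I subunits all lie to the right of 0 (0.79 to 1.14), while rRNA methyltransferases lie at a median of -0.43.

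Genes of the same pathway that the naming rule did not take in were counted in the same way. Of 68 tested, 36 rose and 0 fell in DlaeA (median 0.35), 54 rose and 3 fell in H2BK131A (median 0.72), and 5 rose and 2 fell in H2BK123A (median 0.03). Of all tested genes 46.3% rose and 23.6% fell in DlaeA, 40.6% and 30.2% in H2BK131A, and 33.5% and 13.1% in H2BK123A. The medians of all tested genes were 0.27, 0.13 and 0.18 in that order. After median ratio scaling the splits of the 68 were 21 to 2, 50 to 4 and 1 to 14. Over all tested genes they were then 3212 to 3154, 3326 to 3542 and 2195 to 2235. RPAC1 (PDE_08367), a subunit that RNA polymerases I and III share, rose in H2BK131A by 1.43 ± 0.13 and was not called in DlaeA (0.26 ± 0.13). The 16 subunits of RNA polymerases II and III had a median of 0.17 in H2BK131A, beside 0.13 over all tested genes, with 7 higher and 2 lower. Cytosolic ribosomal proteins, the cargo of the pathway, had 83 of 86 members higher and 1 lower in H2BK131A (median 2.38). In DlaeA 51 were higher and 2 lower (median 0.75), and after median ratio scaling 30 were higher and 4 lower. Their summed level differed widely between the WT libraries, at 5601, 12883 and 11043 FPKM.

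The 4 genes taken by description as markers of asexual structures changed in both directions. In DlaeA 3 rose and 1 fell, beside 46.3% and 23.6% of all tested genes. In H2BK131A 0 rose and 2 fell, beside 40.6% and 30.2%, with the same numbers at an unadjusted p under 0.05. In H2BK123A limma called 0, beside 33.5% higher and 13.1% lower, with 1 lower at an unadjusted p under 0.05. BrlA (PDE_00087), the defining regulator of conidiation, was at 412 to 449 FPKM in DlaeA, 5.67 to 28.9 in WT, 8.95 to 18.2 in H2BK123A and 1.90 to 2.06 in H2BK131A. FlbD (PDE_03008), a regulator upstream of it in Aspergillus, was at 365 to 376 FPKM in DlaeA, 63.8 to 138 in WT, 61.5 to 74.3 in H2BK123A and 3.89 to 6.49 in H2BK131A. Both were thus above WT in DlaeA and below it in H2BK131A, the other strain in which most members rose. PDE_01188 is described as the spore wall maturation protein DIT1, and the description does not say which kind of spore is meant. This locus went the other way in DlaeA, where it fell by 5.36 on the log2 scale to 0.61 to 1.02 FPKM. It was at 5.93 to 376 FPKM in WT, 21.3 to 117 in H2BK123A and 92.7 to 537 in H2BK131A. A second locus named BrlA, PDE_00079, was at 0.15 to 3.26 FPKM over the 12 libraries and was highest in DlaeA. The summed level of the 4 was 790 to 819 FPKM in DlaeA, 124 to 446 in WT, 101 to 210 in H2BK123A and 100 to 543 in H2BK131A, where DIT1 made up most of it. None of the 4 was at 0 in any library. Their part in the members' values was not tested.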

How the data were processed

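Per the labels' protocols, mRNA was bound to oligo(dT) beads and made into tag libraries with the enzymes NlaIII and MmeI. The authors deposited 1 table of FPKM values per gene and library, per the file headers, with KEGG and Gene Ontology annotations. A tag at 1 site does not sample a transcript along its length as FPKM assumes, and the sources used here give no aligner, genome build or step from tags to FPKM. Only a part of the low values lay near whole multiples of 1 step (57.3% of 384 within 0.1 of a step). Reads were not recovered from them, so depth is unknown and no counting interval is given. The annotation table at hand held 0 of the locus identifiers used, so no coordinates or sequences are shown.

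Genes with FPKM of 1 or more in at least 3 of 12 libraries were tested with limma 3.58.1 (R 4.3.3) on log2(FPKM + 1), which understates changes of low genes, with strain as the only term, a mean-variance trend and all 12 libraries (8 residual degrees of freedom). P-values were adjusted by Benjamini-Hochberg over 9431 genes in each of 6 comparisons, and "rose" and "fell" mean an adjusted p under 0.05. Log2 changes are given ± SE. Median ratio and quantile scaling, other pseudocounts (0.1 and 5), no filter, no trend, 2 strains alone, a replicate block and leaving out each library were alternatives. The code was tested on simulated data.

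Members and lists were chosen with earlier results of these data known. Genes are named by rule: the 10 highest and 6 lowest called members against WT, the 5 largest between mutants, the highest and lowest in WT, all RNA polymerase I subunits, members called in opposite directions, and those next to the floor. Others named (MPP10, ERB1, PDE_02304, RPAC1, the asexual markers and the laeA locus) were chosen after their values were seen. Groups follow the sample titles.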

Additional observations from a re-analysis of the deposited data

How the results depend on the processing

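Counts of members called were within 1.5 times the main count at 175 of 192 alternatives. Median ratio scaling gave 39 higher and 11 lower in DlaeA against WT and 16 lower in H2BK123A against WT, and quantile scaling gave 9 and 15 lower there and 45 higher in H2BK131A against DlaeA. Calls over all 9431 tested genes moved too. With median ratio scaling, those lower than WT went from 2225 to 3154 in DlaeA and from 1239 to 2235 in H2BK123A. With DlaeA libraries 2 and 3 averaged, 2 members were higher in H2BK123A than in DlaeA. Restricted to names of 1 locus, a choice made after seeing the data and with fewer genes by construction, 0 were lower in DlaeA, 3 higher and 4 lower in H2BK123A and 2 lower in H2BK131A, each against WT, and 1 was higher in H2BK123A than DlaeA, 8 lower in H2BK131A than DlaeA and 3 lower in H2BK131A than H2BK123A. The cause of the other shifts was not tested.

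Leaving out 1 library at a time gave 59 to 69 higher and 5 to 6 lower in DlaeA, 6 to 16 and 5 to 8 in H2BK123A, and 67 to 70 and 6 to 9 in H2BK131A against WT. The 16 came without the second WT library, where 3883 of all 9431 tested genes were called higher. Between mutants it gave 2 to 4 higher and 46 to 66 lower (H2BK123A against DlaeA; 2 higher without the second DlaeA or the third H2BK123A library), 25 to 28 and 18 to 20 (H2BK131A against DlaeA), and 63 to 69 and 9 to 10 (H2BK131A against H2BK123A).

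Of 74 single results for 38 named members, the direction turned only for RNA polymerase I subunits that were not called against WT. In H2BK123A, RPA1 (PDE_00243) was at -0.029 after median ratio scaling and -0.0105 after quantile scaling, and RPA49 (PDE_09294) at -0.19 and -0.22. Leaving out 1 library at a time gave -0.0445 to 0.37 for RPA1, -0.12 to 0.12 for RPA49, -0.26 to 0.14 for RPA2 (PDE_06994) and -0.17 to 0.0605 for RPA43 (PDE_05879) in H2BK123A, and -0.053 to 0.0319 for RPA43 in DlaeA.

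Of 18 pairs of libraries with the same number, 3 correlated above 0.1 in their deviations from the strain means, with a range of -0.22 to 0.21. Among the 12 libraries, 5 correlated best with their own number. Deviations from means of 3 libraries depend on each other, so this cannot decide whether libraries of the same number share a batch. With a replicate block, 66 members were higher and 5 lower in DlaeA, 9 and 8 in H2BK123A, and 69 and 8 in H2BK131A against WT. Depth is unknown, so what it limits cannot be stated.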

Other observations

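Genes of the pathway outside the naming rule, chosen here after their values were seen, held some of the larger changes. The polymerase I initiation factor RRN7 (PDE_02848) was at a mean of 60.2 FPKM in WT, 107 in DlaeA, 65.9 in H2BK123A and 225 in H2BK131A, with rises of 0.88 ± 0.20 in DlaeA and 1.95 ± 0.20 in H2BK131A. Pescadillo (PDE_05597), which in yeast acts with YTM1 and ERB1, rose by 0.71 ± 0.19 and 1.57 ± 0.19. The catalytic subunit of the H/ACA particle, which converts uridine to pseudouridine (PDE_02298), was at 43.5 FPKM in WT and 123 in H2BK131A, a rise of 1.5 ± 0.20, and was not called in DlaeA (0.24 ± 0.20). PWP2 (PDE_09457), a UTP-B protein, rose by 1.39 ± 0.12 in DlaeA, 0.45 ± 0.12 in H2BK123A and 0.85 ± 0.12 in H2BK131A. The exosome component RRP41 (PDE_05329), which trims RNA ends, rose in DlaeA by 0.98 ± 0.21 and in H2BK131A fell by 1.02 ± 0.21.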
